A study of Sus scrofa with 16 samples.

Results

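The S100 calcium-binding proteins were followed in hippocampal RNA of preterm pigs. The family was set as 9 named genes, S100A1, S100A4, S100A6, S100A8, S100A9, S100A10, S100A11, S100A12 and S100B, and each was looked up by its pig gene identifier among the 22815 distinct entries of the expression table. Of these 9 genes, 5 had values above 0 and also passed the filter on low values, which asked for an average of 0.5 FPKM or more in the 16 pigs and left 13590 entries. These were S100A1 (ENSSSCG00000031053), S100A8 (ENSSSCG00000006590), S100A9 (ENSSSCG00000006588), S100A10 (ENSSSCG00000006612) and S100A11 (ENSSSCG00000006610), with 1 entry each. S100A6 was listed at 0 in all 16 pigs, where a 0 in an FPKM table can also be a failed estimate. S100A4, S100A12 and S100B were not found and are not analysed here. The family was proposed because earlier results on these pigs pointed to it, so its differences between the groups are given as a description, and nothing is read from the fitted tests of them.

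The pigs were delivered preterm by caesarean section and fed human donor milk beside parenteral nutrition that was gradually reduced, over a study period of 8 days, and necrotizing enterocolitis (NEC) arose spontaneously. At the end the gut was scored by eye. No NEC pigs (n = 5) had no lesion in any region, Co-NEC pigs (n = 5) had severe lesions only in the colon, and Si-NEC pigs (n = 6) had severe lesions in the small intestine whatever the state of the colon. No pig was randomised to its group, and the sow of each pig is not given in the labels. The Si-NEC group held 3 females and 3 males, and the other groups 2 females and 3 males each. Each library came from the left hippocampus of 1 pig. FPKM counts sequenced fragments scaled to transcript length and library size, so levels can be compared between genes, but the table holds no read counts and the sequencing depth of each pig cannot be stated. No NEC pig 230-15 and Si-NEC pig 223-15 stood apart, with FPKM sums of 864931 and 823320 against 544629 to 645197 in the other 14 pigs, and results that rest on them are given with and without them. Of the hippocampal markers looked up, GFAP of astrocytes was at 438.5 FPKM or more in every pig and PROX1 of granule neurons at 4.92 or more. Of 10 astrocyte genes looked up, 6 were found, and ALDH1L1 among them was listed at 0 in all 16 pigs.

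S100 proteins are small EF-hand proteins that change shape on binding calcium and then attach to other proteins inside the cell, and some are also secreted. S100A8 and S100A9 pair as calprotectin, an abundant product of neutrophils and monocytes that acts on the receptors RAGE (AGER) and TLR4. S100A10 binds annexin A2, S100A11 binds annexin A1, and S100A1 is known from muscle and neurons as a regulator of calcium pumps and release channels. In the pig reference annotation, S100A8, S100A12 and S100A9 lie next to each other on chromosome 4, S100A10 and S100A11 are neighbours, and S100A1 begins the cluster.

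S100A1 was by far the most abundant of the 5, at 1782 ± 918 FPKM (SD, n = 16), and ranked 28 among the 13590 entries by mean level. S100A11 (31.98 ± 11.1 FPKM, SD, n = 16) and S100A10 (30.7 ± 10.99) came next and did not differ beyond their spread. S100A9 (5.91 ± 9.30) and S100A8 (5.67 ± 7.69) were lowest and likewise overlapped, below the median entry at 9.44 FPKM. Variability followed another order. The SD of log2(FPKM + 0.5) within groups was 1.34 for S100A9 and 0.89 for S100A8, above 98.5% and 96.5% of entries, against a median of 0.29 over all entries tested. It was 0.50 for S100A1, 0.48 for S100A10 and 0.40 for S100A11.

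S100A8 was high in most Si-NEC pigs and low in all others. Its level was 1.03, 3.09, 1.99, 1.82 and 0.764 FPKM in the No NEC pigs 540-14, 228-15, 230-15, 253-15 and 550-14. In the Co-NEC pigs 225-15, 545-14, 552-14, 255-15 and 231-15 it was 1.21, 2.31, 1.67, 0.734 and 0.918. The Si-NEC pigs ranged from 2.21 over a median of 10.9 to 25.0 FPKM. In that group, 5 of 6 pigs lay above every pig of the other groups, and pig 547-14, at 2.21, lay within the No NEC and Co-NEC ranges. The mean was 7.21 times that of No NEC and 9.16 times that of Co-NEC. On the log2(FPKM + 0.5) scale, which understates changes of low genes, the difference was 2.24 (SE 0.55) from No NEC and 2.47 (SE 0.53) from Co-NEC, and Co-NEC minus No NEC was -0.23 (SE 0.31). These are bulk samples, in which more cells that carry a transcript and more transcript per cell cannot be told apart.

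S100A9, the partner of S100A8 in calprotectin, was high in the same 5 Si-NEC pigs. The No NEC pigs, in the order above, had 1.53, 3.52, 1.01, 0.520 and 0 FPKM, and the Co-NEC pigs 1.46, 0.363, 0.895, 0.881 and 0.843. In Si-NEC it ran from 0.433 over a median of 13.7 to 29.1 FPKM, and the lowest pig was again 547-14. The 5 other Si-NEC pigs, from 5.03 upward, lay above every No NEC and Co-NEC pig. Si-NEC exceeded No NEC by 2.61 (SE 0.84) and Co-NEC by 2.71 (SE 0.76) on the log2 scale, and Co-NEC minus No NEC was -0.10 (SE 0.47), or -0.49 without No NEC pig 550-14 and 0.26 without No NEC pig 228-15. The difference from No NEC was 2.23 without pig 550-14, which is listed at 0, and 3.26 without 547-14. S100A9 was above S100A8 in 8 of 16 pigs, and the ratio of the 2 transcripts had a median of 1.09 in Si-NEC (0.196 to 1.45) and 0.968 over all pigs.

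**Figure D1:**
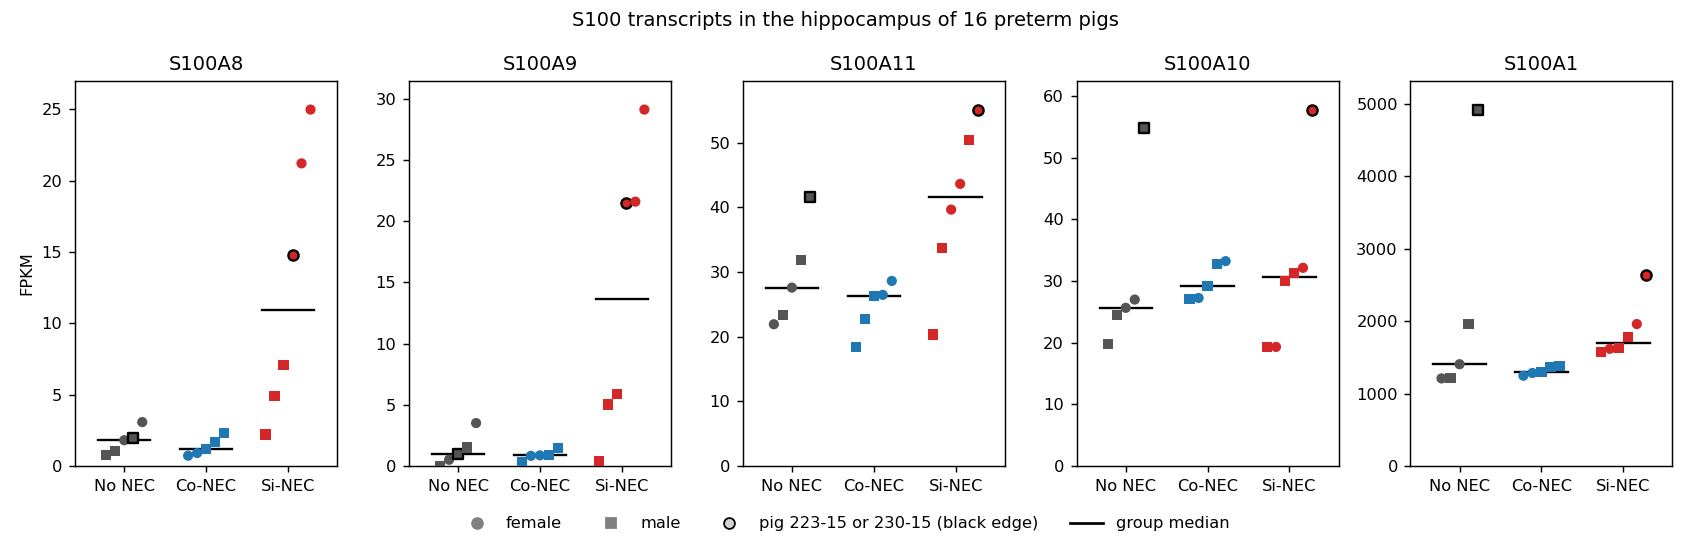
FPKM of the 5 measured S100 transcripts in each pig (y axis, from 0, with a scale of its own per gene) by group (x axis), with circles for females, squares for males, a line at the group median and a black edge for pigs 223-15 and 230-15. S100A8 and S100A9 are high in 5 of 6 Si-NEC pigs, highest in the 3 females, while the highest S100A10 and S100A1 values belong to the pigs with a black edge.

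S100A11, a widely expressed partner of annexin A1, was also higher in most Si-NEC pigs, but by less. The No NEC pigs had 31.8, 27.6, 41.6, 21.9 and 23.3 FPKM, the Co-NEC pigs 26.3, 22.8, 18.4, 26.5 and 28.6, and the Si-NEC pigs ran from 20.4 (547-14) over a median of 41.6 to 55.1 (223-15). Here too 5 of 6 Si-NEC pigs exceeded the highest Co-NEC pig, but only 3 of 6 exceeded the highest No NEC pig. The log2 difference of Si-NEC was 0.66 (SE 0.22) from Co-NEC and 0.43 (SE 0.25) from No NEC. Co-NEC minus No NEC was -0.23 (SE 0.18).

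S100A1 was the only one of the 5 that separated Si-NEC from Co-NEC pigs completely. The Co-NEC pigs had 1388, 1296, 1368, 1249 and 1287 FPKM, a coefficient of variation of 4.42%, and the Si-NEC pigs ran from 1573 over a median of 1706 to 2636 (223-15). All 6 Si-NEC pigs were above all Co-NEC pigs, a pattern that 0.309% of the entries tested showed, and the log2 difference was 0.48 (SE 0.14), or 0.38 without 223-15. The No NEC pigs had 1215, 1212, 4924, 1408 and 1967 FPKM, so they lay on both sides of these groups, and the 4924 is pig 230-15. Si-NEC minus No NEC was 0.01 (SE 0.34) and became 0.37 without 230-15, and Co-NEC minus No NEC was -0.47 (SE 0.35) and became -0.11.

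S100A10, known as p11, did not follow the groups. It was at 24.4, 27.0, 54.8, 25.7 and 19.8 FPKM in No NEC, at 32.7, 27.1, 29.2, 33.2 and 27.2 in Co-NEC, and in Si-NEC from 19.3 over a median of 30.7 to 57.8. The 2 highest values were those of 230-15 and 223-15, and pigs 246-15 and 547-14, which had the highest and the lowest S100A8 of the Si-NEC group, both had 19.3. The log2 difference was 0.05 (SE 0.31) for Si-NEC and 0.07 (SE 0.23) for Co-NEC against No NEC, and -0.01 (SE 0.24) between Si-NEC and Co-NEC. Without 230-15 the first of these became 0.29 and the second 0.30.

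**Figure D2:**
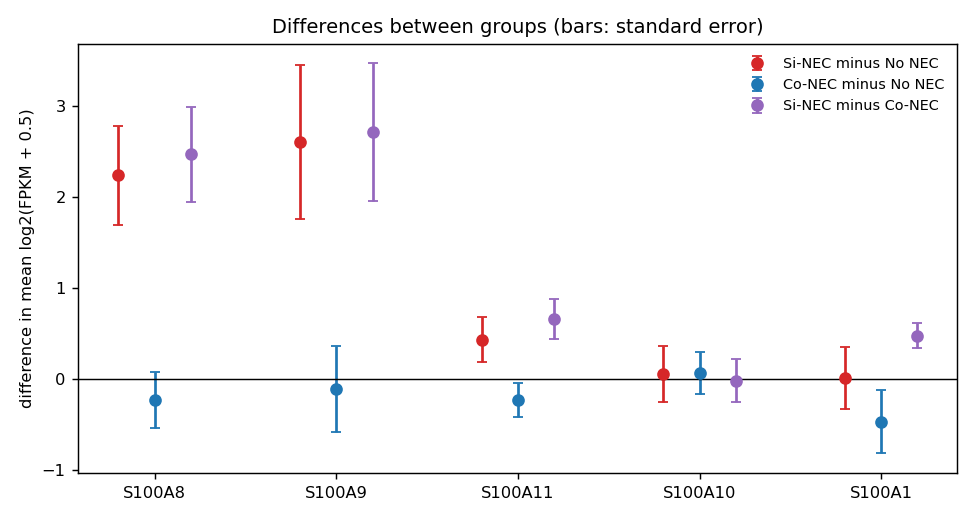
Difference in mean log2(FPKM + 0.5) between groups (y axis) for each S100 transcript (x axis), with standard errors from limma as bars and one colour per comparison. S100A8 and S100A9 lie at 2.24 to 2.71 in both Si-NEC comparisons, and their Co-NEC minus No NEC differences, -0.23 and -0.10, are smaller than the standard errors.

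In a limma fit over all 13590 entries, with p-values adjusted after Benjamini and Hochberg and called below 0.2, 0 of the 5 transcripts were called in each comparison. The fit called 0.00736% of entries between Si-NEC and No NEC, 0.00736% between Co-NEC and No NEC, and 0.0147% between Si-NEC and Co-NEC. An unadjusted p under 0.05 was reached by 2 of the 5 between Si-NEC and No NEC (2.61% of entries), by 0 between Co-NEC and No NEC (3.44%) and by 4 between Si-NEC and Co-NEC (5.64%). Of the 5 differences, 5, 1 and 4 were above 0 in that order, against 53.8%, 52.0% and 50.1% of entries, with medians of 0.43, -0.23 and 0.66 against 0.02, 0.01 and 0.00 over all entries. Without Si-NEC pig 547-14, the lowest of its group for both genes, S100A8 and S100A9 were called between Si-NEC and Co-NEC. In that fit 12 of all entries were called, against 2 with all pigs. The comparisons share pigs, and the members were chosen with these contrasts known, so nothing is read from these counts.

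Sex was not used to choose the family, and its tests can be read. In the Si-NEC group, the 3 females had 14.8, 21.2 and 25.0 FPKM of S100A8 (223-15, 224-15 and 246-15), and the 3 males 2.21, 7.11 and 4.93 (547-14, 539-14 and 226-15). For S100A9 the same females had 21.5, 21.6 and 29.1, and the same males 0.433, 5.03 and 5.86. All 3 females were above all 3 males for both genes, by 2.08 and 2.93 on the log2 scale, with p = 0.10 each (exact permutation test, two-sided), the smallest that 3 against 3 allows. In the Co-NEC group, the 2 females had less S100A8 than the 3 males, with a log2 difference of -0.72 (p = 0.20, exact permutation test).

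The sex difference in S100A8 was 2.80 larger on the log2 scale in Si-NEC than in Co-NEC, with p = 0.01 (exact permutation test of 200 arrangements within groups, two-sided) and 0.15 after adjustment over 15 such tests, which is above 0.05. Limma gave the same term an adjusted p of 0.484 over all entries. The corresponding term for S100A9 was 2.89 (exact permutation p = 0.055, adjusted 0.275). The sex difference in S100A8 was 1.49 lower on the log2 scale in Co-NEC than in No NEC (exact permutation p = 0.03, adjusted 0.225). These tests between groups shuffle sex within each group, so their p is exact only where sex has no effect in either group. Averaged over the 3 groups, the female minus male difference was 1.26 for S100A9 (exact permutation p = 0.034, adjusted 0.17 over 5 genes) and 0.71 for S100A8 (p = 0.084, adjusted 0.21, same test). With group as a covariate, limma gave 1.38 (SE 0.52) for S100A9 and 0.81 (SE 0.37) for S100A8, both with an adjusted p of 0.9999. It called 0 of the 5 transcripts (2 at an unadjusted p under 0.05), where 0.0515% of entries were called (3.25% at an unadjusted p under 0.05).

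All 6 pigs whose number ends in 14 were male, so that sex and this suffix, whose meaning the labels do not give, overlap. Among the pigs with suffix 15 alone, the female minus male difference was 0.63 for S100A8 and 0.66 for S100A9. In the Si-NEC group, the suffix 15 pigs were the 3 females and male 226-15, and the suffix 14 pigs were males 547-14 and 539-14. With group as a covariate, the difference of suffix 14 from suffix 15 was below 0 for all 5 transcripts, at -1.48 (SE 0.52) for S100A9, -0.67 (SE 0.40) for S100A8, -0.46 (SE 0.16) for S100A11, -0.37 (SE 0.21) for S100A10 and -0.18 (SE 0.25) for S100A1 on the log2 scale. The adjusted limma p was 0.915 or more and 0 of the 5 were called (2 at an unadjusted p under 0.05), where 0.0221% of entries were called (5.11% at an unadjusted p under 0.05) and 46.1% were higher with suffix 14. Among males only, S100A9 differed by -0.97 and S100A8 by -0.19.

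Co-variation was computed for the 10 pairs of transcripts. Over all 16 pigs it is a description, since it includes the Si-NEC differences that led to the choice of genes, and tests were made with group means removed. S100A8 and S100A9 rose and fell together most closely, with Pearson's r of 0.92 and Spearman's rho of 0.71. Without pigs 246-15 and 224-15, the 2 farthest from the median of S100A8, r was 0.85. With the mean of each group removed, r was 0.84 (permutation within groups, p = 0.00257, adjusted 0.0257). Sex and number suffix were not removed, and in Si-NEC all 3 females lay above all 3 males for both genes. The part of sex or suffix in this r was not tested. Within the 6 Si-NEC pigs alone r was 0.96 (exact permutation p = 0.00556, adjusted 0.0556), and within the other 10 pigs 0.42 (permutation p = 0.23). A relation outside the Si-NEC group was therefore not shown.

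**Figure D3:**
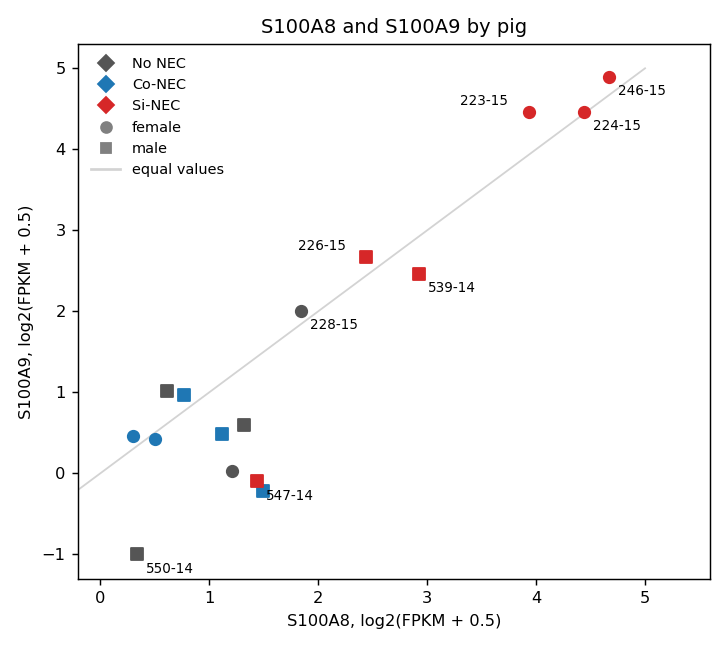
S100A9 (y axis) against S100A8 (x axis), both as log2(FPKM + 0.5), for 16 pigs, with colour for the group, shape for the sex and a grey line of equal values. The 3 Si-NEC females sit at the top right, Si-NEC males 226-15 and 539-14 lie between them and the rest, and Si-NEC male 547-14 lies among the No NEC and Co-NEC pigs.

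The next highest r over 16 pigs was that of S100A11 with the calprotectin pair. Over 16 pigs its r was 0.79 with S100A9 (rho 0.79) and 0.67 with S100A8 (rho 0.55). Without 246-15 and 224-15 these were 0.79 and 0.64. With group means removed they fell to 0.67 (permutation p = 0.027, adjusted 0.0899) and 0.41 (permutation p = 0.239, adjusted 0.392), both above 0.05 after adjustment. Within the 10 pigs outside Si-NEC they were 0.36 (permutation p = 0.29) and -0.005 (permutation p = 0.99). S100A10 and S100A1 went together with r = 0.56 over 16 pigs (rho 0.16) and with r = -0.47 without 230-15 and 223-15, so that relation rested on those 2 pigs. That of S100A10 with S100A11 went from 0.52 to 0.15. With group means removed, 1 of the 10 pairs, S100A8 with S100A9, had an adjusted permutation p below 0.05.

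**Figure D4:**
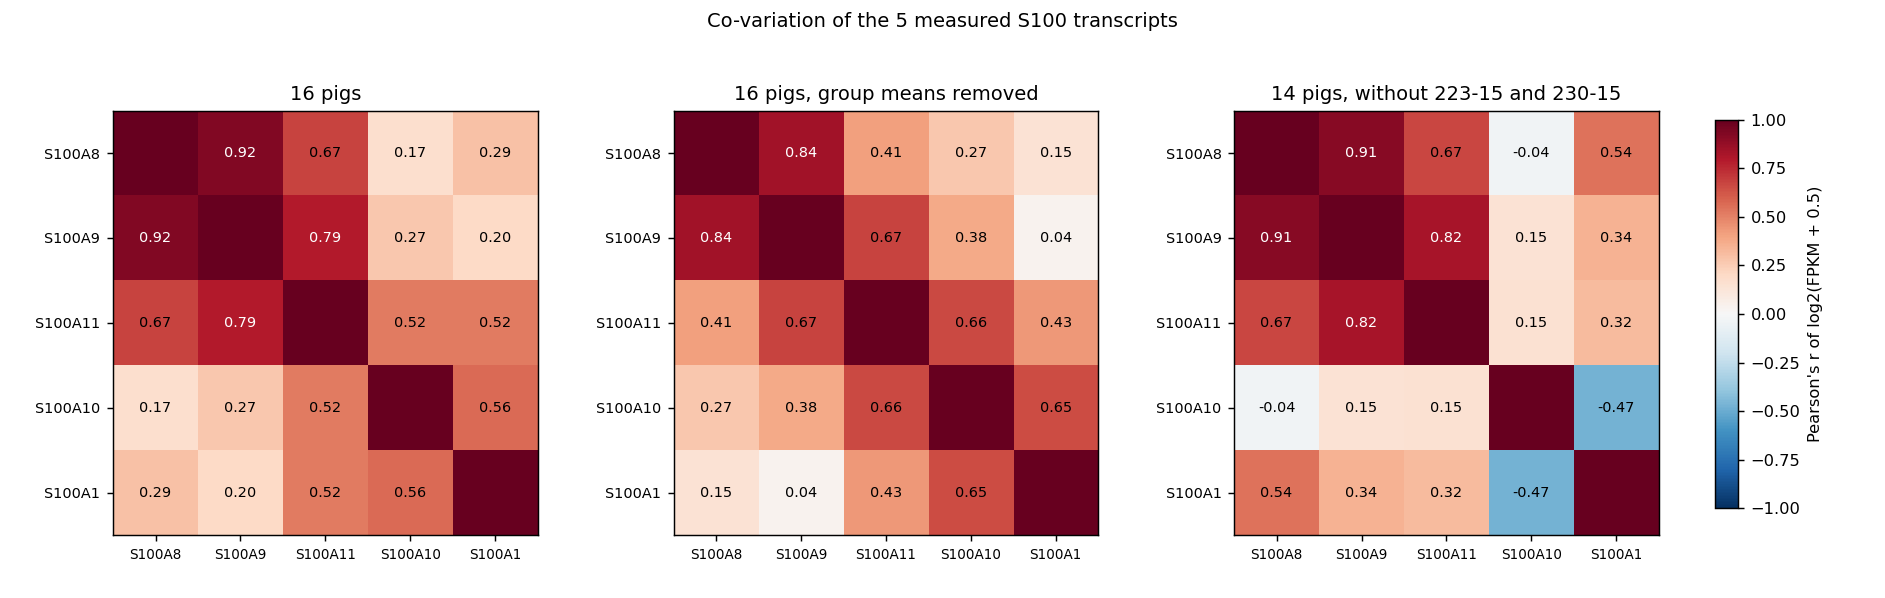
Pearson's r of log2(FPKM + 0.5) for each pair of S100 transcripts (both axes list the transcripts, colour and number give r), over 16 pigs, over 16 pigs with group means removed, and over 14 pigs without 223-15 and 230-15. S100A8 and S100A9 stay at 0.84 to 0.92 in all 3 panels, and S100A1 with S100A10 goes from 0.56 to -0.47 in the last.

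The genes whose pattern over the 16 pigs was most like that of each transcript are given as a description, ranked by Pearson's r among 9068 other entries with a symbol. For S100A8 they were RETN (r = 0.947), which encodes resistin, S100A9 itself, TGM3 (0.872), a protein-crosslinking transglutaminase, CLEC14A (0.794), an endothelial lectin, and CXCL2 (0.791), a chemokine that attracts neutrophils. ADAMTSL4, P2RY14, ARRDC4, PPP1R3B and IER2 followed, at 0.777 to 0.789. For S100A9 they were RETN (0.963), S100A8 and TGM3 (0.924). RETN, TGM3, CXCL2 and PPP1R3B averaged under 0.5 FPKM in both the No NEC and the Co-NEC group. These genes passed the filter only through Si-NEC pigs, where S100A8 and S100A9 were mostly high, so their place in the ranking is partly set by the filter. RETN was listed at 0 in 8 pigs. It was at 4.01, 5.20 and 7.26 FPKM in the Si-NEC females 223-15, 224-15 and 246-15, at 1.16 in 539-14, 0.991 in 226-15 and 1.18 in No NEC pig 228-15, and at most 0.328 in the others. The 6 pigs with the highest RETN were also the 6 with the highest S100A8. With group means removed, r of RETN was 0.900 with S100A8 and 0.923 with S100A9, and without 223-15 and 230-15 it was 0.943 and 0.959. Among all 13589 other entries, with or without a symbol, 8 had an r above 0.8 with S100A8.

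The other transcripts kept different company. S100A11 was most like ATP2A3 (0.867), a calcium pump of the endoplasmic reticulum, RAC2 (0.846), a GTPase of blood cells, and FAXDC2 (0.825). S100A10 was most like LAMP5 (0.927), POLD4 (0.914) and ITPRID1 (0.914). S100A1 was most like GAPDH (0.968), a glycolytic enzyme, NDUFS5 (0.957), a subunit of respiratory complex I, and RPL27, a ribosomal protein. These genes share with S100A1 their highest value in pig 230-15, at 6573 FPKM for GAPDH against 2189 to 3791 in the others, and 927 of all 13589 other entries had an r above 0.8 with S100A1. Without 223-15 and 230-15, r with S100A1 was 0.838 for GAPDH, 0.803 for NDUFS5 and 0.879 for RPL27. In the same 14 pigs, r with S100A10 was 0.765 for LAMP5, 0.719 for POLD4 and 0.774 for ITPRID1, and r with S100A11 was 0.830 for ATP2A3, 0.770 for RAC2 and 0.761 for FAXDC2.

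**Figure D5:**
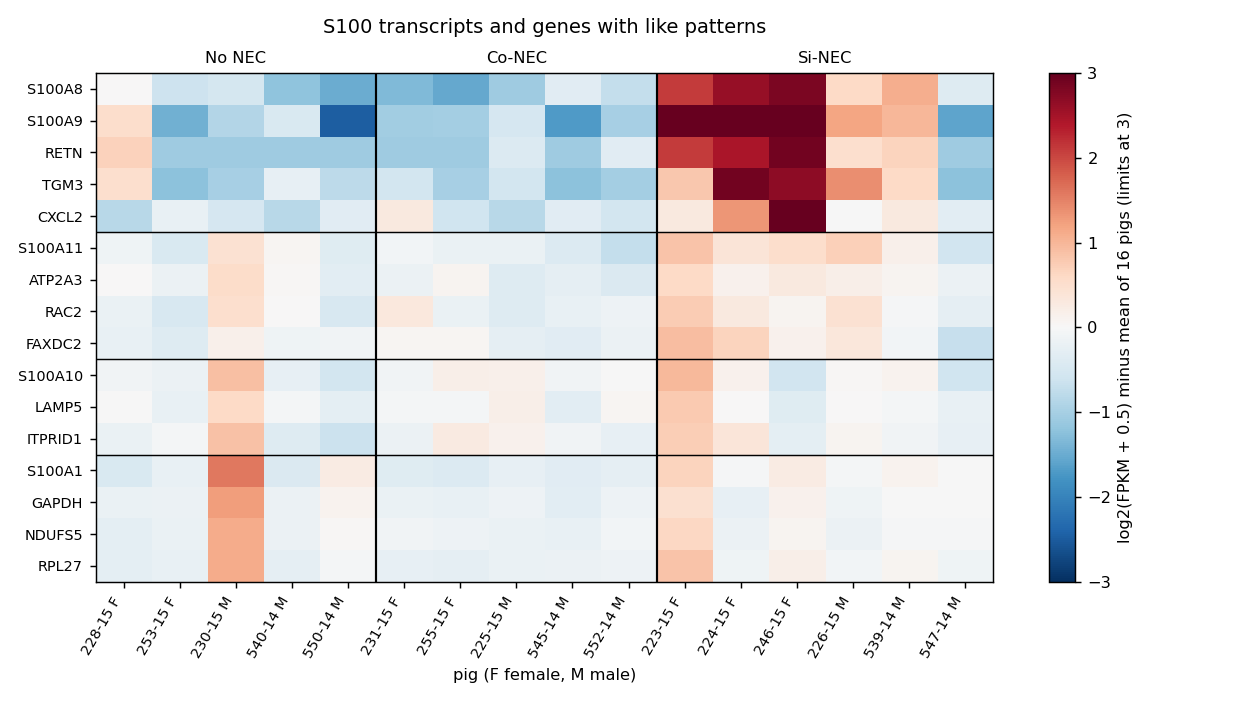
Log2(FPKM + 0.5) minus the mean of 16 pigs (colour, with limits at 3) for the S100 transcripts and genes with like patterns (rows) by pig (columns, grouped by NEC status and ordered by sex). S100A8, S100A9, RETN and TGM3 are high in the Si-NEC females, and S100A1, GAPDH, NDUFS5 and RPL27 are highest in No NEC pig 230-15.

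Of 18 receptors and binding partners of S100 proteins that were looked up, 13 were found and 12 tested. In each of the comparisons of groups 0 were called, where at most 0.0147% of all entries were called. AGER, the gene of RAGE, was at most 0.383 FPKM and under the minimum. TLR4 was at 1.47 ± 0.626 FPKM (SD, n = 5) in the No NEC group, 1.37 ± 0.244 (n = 5) in the Co-NEC group and 1.99 ± 0.959 (n = 6) in the Si-NEC group, and its co-receptor CD14 at 10.5 ± 1.497, 7.72 ± 1.31 and 12.6 ± 7.15. The groups overlapped for both, and the highest TLR4 and CD14, at 3.13 and 25.4 FPKM, were those of pig 246-15, which also had the highest S100A8 and S100A9. ANXA2, the partner of S100A10, was at 20.7 ± 5.52, 15.5 ± 0.935 and 20.3 ± 5.95 FPKM in the same order, with r = 0.534 with S100A10, which became -0.311 without 223-15 and 230-15. ANXA1, the partner of S100A11, was at 29.6 ± 9.92, 29.6 ± 5.62 and 28.3 ± 10.9, with r = 0.480 with S100A11, or 0.162 without those 2 pigs. CACYBP, which binds several S100 proteins, had r = 0.807 with S100A10, or 0.603 without them, with its highest value, 98.9 FPKM, in 223-15. Si-NEC minus No NEC was above 0 for 8 of the 12 (53.8% of all entries) and Si-NEC minus Co-NEC for 10 (50.1%), with medians of 0.11 and 0.16. Co-NEC minus No NEC was above 0 for 4 of the 12 (52.0%), with a median of -0.085. In that comparison CD14, at -0.43 (SE 0.14), and ANXA2, at -0.38 (SE 0.16), had an unadjusted p under 0.05 and an adjusted limma p of 0.812 each. An unadjusted p under 0.05 was reached by 3.44% of all entries there.

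Of 10 further S100 genes, 5 were found and 2 passed the filter. S100A14 was at 128 ± 30.0 FPKM in No NEC, 107 ± 13.4 in Co-NEC and 99.2 ± 18.8 in Si-NEC pigs, with a log2 difference of -0.36 (SE 0.17) for Si-NEC minus No NEC, opposite in sign to that of S100A8. S100A3 was at 1.83 ± 0.779, 3.10 ± 3.16 and 1.43 ± 0.919. Neither was called by limma between any groups. S100A5, S100G and S100Z were at 0 in 11 to 13 pigs.

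S100A8 and S100A9 are products of blood leukocytes, so markers of those cells were read beside them. Of 17 neutrophil genes, 12 were found and 3 passed the filter, of which 0 were called (at most 0.0147% of all entries). CSF3R and AZU1 were listed at 0 in all 16 pigs, MMP8 in 14 and MMP9 in 9, while MPO was at most 0.940 FPKM, ELANE at most 0.337 and LTF at most 0.973. The neutrophil genes summed to 6.00 to 12.6 FPKM in No NEC, 5.91 to 7.77 in Co-NEC and 5.49 to 11.4 in Si-NEC pigs, ranges that overlapped. LTF and MMP9 had their highest values, 0.973 and 0.395 FPKM, in 246-15. LYZ, the 1 monocyte gene of 8 that passed the filter, was at 0.801 ± 0.618, 0.694 ± 0.0698 and 1.66 ± 1.32 FPKM in No NEC, Co-NEC and Si-NEC pigs, with r = 0.796 with S100A9, or 0.752 without 223-15 and 230-15. Of the other monocyte and macrophage genes, MRC1, MSR1 and LYVE1 were found under the minimum, each with its highest value in No NEC pig 540-14 (0.964, 1.47 and 0.700 FPKM). The mean went from 0.439 in No NEC to 0.539 in Si-NEC for MRC1. For MSR1 it went from 0.578 to 0.460 and for LYVE1 from 0.341 to 0.247. The 4 genes found summed to 0.686 to 4.0 FPKM in No NEC, 1.61 to 2.28 in Co-NEC and 1.2 to 5.61 in Si-NEC pigs, which overlapped. The part of leukocytes in the S100A8 and S100A9 levels was not tested.

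Genes of the acute-phase and NF-kB response were read in the same pigs. Of 17 such genes, 9 were found and 8 tested, with 0 called, and Si-NEC minus No NEC was above 0 for all 8 (53.8% of all entries, of which 0.00736% were called), with a median of 0.30. Of the 8, CXCL8 passed the filter only through Si-NEC pigs, so its sign was set by the filter and the count is a description. Its means were 0.073, 0.066 and 1.48 FPKM in No NEC, Co-NEC and Si-NEC pigs, with 7.82 in pig 246-15. Co-NEC minus No NEC was above 0 for 5 of the 8 (52.0%), with a median of 0.036. They summed to 41.9 to 53.3 FPKM in No NEC, 42.1 to 57.8 in Co-NEC and 39.9 to 162.8 in Si-NEC pigs, and the 162.8 was that of 246-15. CCL2, a monocyte-attracting chemokine, was at 70.9 FPKM in that pig and between 0.659 and 4.82 in the others. Pig 547-14, which had the lowest S100A8, S100A9 and S100A11 of the Si-NEC group, had the lowest sum of these genes of all 16 pigs, 39.9 FPKM. The lowest sums in No NEC and Co-NEC, 41.9 and 42.1 FPKM, were close to it. Si-NEC pig 539-14, with S100A8 at 7.11 FPKM, had a sum of 44.5, below the No NEC median of 49.3.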

How the data were processed

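Left hippocampi of 16 pigs were sequenced. The authors trimmed the reads, aligned them to Sscrofa10.2 with TopHat2 2.1.1 and estimated FPKM with Cufflinks 2.2.1, and the deposited FPKM of each gene and pig was used unscaled. No counts were used, so no depth or counting error could be given. The 1779 identical entries were dropped from 24594. Symbols came from a table of gene identifiers. S100A9 has no symbol there and was found through its group means in a supplementary table of the study (summed log2 gap 5e-06, next entry 0.40), a search that also returned S100A1, S100A8 and S100A11 by their symbols.

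Each pair of groups was fitted with limma 3.58.1 (R 4.3.3, eBayes with a trend) on log2(FPKM + 0.5), with Benjamini-Hochberg adjustment over all entries. Sex and number suffix were fitted with group as a covariate. Single values were tested with exact permutations and correlations with 100000 permutations. Scripts were tested on simulated data. The genes named are the family, for each member the 3 entries with the highest r (10 for S100A8), and receptors, partners and defining markers of the lists. Microglia, astrocyte, oligodendrocyte, precursor, neuron, endothelial, mural, choroid plexus and erythroid lists were also counted, with 0 called in each comparison of groups (at most 0.0147% of all entries). The members and lists were chosen with earlier results of these data known. Some genes of the lists are not reported here by name. Alternatives were other pseudocounts, filters, scalings, variance models, covariates and subsets of pigs.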

Additional observations from a re-analysis of the deposited data

Results flagged for a closer look

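In 15 sets of values (5 transcripts in 3 groups), 4 had 1 pig far from the rest of its group by Dixon's gap, where chance gives about 1 in 20 groups. These were S100A1 in No NEC pig 230-15 at 4924 FPKM (the next pig at 1967), S100A1 in Si-NEC pig 223-15 at 2636 FPKM (next 1962), S100A10 in No NEC pig 230-15 at 54.8 FPKM (next 27.0) and S100A10 in Si-NEC pig 223-15 at 57.8 FPKM (next 32.1). All 4 belong to the 2 pigs with the highest FPKM sums.

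The female minus male difference in S100A8 was flagged before adjustment, with a log2 value of 2.80 for Si-NEC against Co-NEC (exact permutation p = 0.01) and -1.49 for Co-NEC against No NEC (exact permutation p = 0.03). After adjustment over 15 tests these were 0.15 and 0.225, and each group held only 2 or 3 pigs of a sex. A sex difference that differs between groups was therefore not shown.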

How the results depend on the processing

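Of the alternatives, 2 changed the number of S100 transcripts called between Si-NEC and Co-NEC from 0 to 2, array weights (S100A1 and S100A8) and leaving out Si-NEC pig 547-14 (S100A8 and S100A9), so leaving out 1 pig at a time gave 0 to 2. Without 547-14, 12 of all entries were called, against 2 with all pigs. Array weights also changed the number called for the suffix from 0 to 2 (S100A9 and S100A11). With group means removed, 1 of the 10 pairs, S100A8 with S100A9, had an adjusted permutation p below 0.05. With group means left in, r includes the Si-NEC differences that led to the choice of genes. No count of pairs is therefore read from those values. Without 223-15 and 230-15, r turned to -0.47 for S100A1 with S100A10 and to -0.036 for S100A8 with S100A10.

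Signs also turned among differences that were not called. Si-NEC minus No NEC turned for S100A1 in 6 of 24 alternatives (-0.14 to 0.37) and for S100A10 in 2 (-0.14 to 0.29), Co-NEC minus No NEC for S100A9 in 5 of 23 (-0.49 to 0.26) and S100A10 in 1 (-0.060 to 0.30), and Si-NEC minus Co-NEC for S100A10 in 4 of 24 (-0.21 to 0.10). Female minus male turned for S100A1 without 230-15 (range without 1 pig -0.26 to 0.023), for S100A10 without 223-15 or 547-14 (-0.076 to 0.21), and among pigs with suffix 15, to -0.32 for S100A10 and -0.27 for S100A11. The suffix difference of S100A1 turned to 0.075 with array weights, 0.080 without 223-15 and 230-15 and 0.017 without 230-15 (range without 1 pig -0.27 to 0.017). The sex difference of S100A10 between groups turned to -0.33, -0.23 and -0.10 without both pigs, and without 1 pig it ran from -0.23 to 0.49 for Co-NEC against No NEC and from -0.10 to 0.68 for Si-NEC against Co-NEC. That of S100A9 for Co-NEC against No NEC ran from -1.77 to 0.21 (without 228-15), and that of S100A11 for Si-NEC against Co-NEC from -0.16 (without 547-14) to 0.49. The causes were not tested. Differences of S100A8 and S100A9 for Si-NEC against either group stayed above 0 in all 24 alternatives run, at 1.97 to 2.84 and 2.23 to 3.36. Filters, eBayes options, the threshold and a single fit of the 3 groups cannot move these differences. The genes were also chosen with these contrasts known, so nothing is read from that count. Over all entries, array weights gave 4, 201 and 940 calls, for Si-NEC against No NEC, Si-NEC against Co-NEC and the suffix, against 1, 2 and 3. The tests of the sex difference between groups under other settings, suffix 15 pigs alone and males alone were chosen after seeing the data.

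No paired analysis was possible because replicate numbers are only accession order and no pig number is shared between groups. Depth is unknown, so the precision of S100A8 and S100A9 in No NEC and Co-NEC pigs, near 1 FPKM, cannot be given.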
